A study of Mus musculus with 12 samples.

Results

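Fc receptors bind the constant part of antibodies, and 6 of their genes were followed here in a mouse dendritic cell (DC) line. They were Fcgr1, Fcgr3 and Fcgr4, which encode activating receptors for IgG, Fcgr2b, which encodes the inhibitory receptor for IgG, Fcer1g, which encodes the gamma chain that the activating receptors share, and Fcgrt, which encodes the neonatal Fc receptor. They were listed by name as a family, with no threshold on a measured value. All 6 were among the 55401 genes of the count table, and all 6 were among the 14079 genes abundant enough to be tested.

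RNA was sequenced from 12 cultures of Sp37A3, an immature DC line from mouse spleen, with 3 cultures in each of 4 groups. CtrV cells carried an empty vector. EKO cells were a pool of clones edited with CRISPR-Cas9 at Siglece, the gene of the inhibitory receptor Siglec-E, so that any difference between the lines can also hold differences between the pooled clones and the control population. Cells of each line were left unpulsed or were pulsed with the protein antigen ovalbumin (OVA), and all cultures, controls included, received lipopolysaccharide (LPS), were given 24 h of processing time and were kept in medium with GM-CSF and M-CSF. No culture without LPS was analysed here, so the response of the Fc receptor genes to LPS itself cannot be read from these values.

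The activating receptors Fcgr1, Fcgr3 and Fcgr4 need the gamma chain for their surface expression and for their signal, which starts at a pair of tyrosines in the tail of the gamma chain and recruits the kinase Syk. Fcgr2b carries a single inhibitory tyrosine motif in its own tail, through which it recruits the phosphatase SHIP-1, and the balance between both arms sets how strongly a DC responds to immune complexes. The neonatal receptor works inside the cell, pairs with beta-2-microglobulin and rescues IgG from degradation. Fcgr2b, Fcgr4 and Fcgr3 are neighbours on chromosome 1 with Fcer1g further along the same chromosome, whereas Fcgr1 lies on chromosome 3 and Fcgrt on chromosome 7.

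The opposing signalling motifs stand in the coding sequences as follows, with the tyrosine codons in capitals (GENCODE gene models, GRCm38, coding strand). The gamma chain motif covers codons 65 to 79 of 86 and lies on the minus strand between the ends of chr1:171229889-171230072, across 2 exons. The Fcgr2b motif covers codons 317 to 322 of 340 and lies within 1 exon on the minus strand at chr1:170961071-170961088.
Fcer1g: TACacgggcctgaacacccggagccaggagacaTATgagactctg
Fcgr2b: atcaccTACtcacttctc

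Fcgr2b and Fcgr3 are close copies of each other, and this bears on how well their counts can be separated. Their coding sequences were identical at 88.0% of 775 aligned positions, against 69.0% to 72.8% for the other 5 pairs among the 4 IgG receptor genes. Within 200 bases of the extracellular part they differed at 1 base, shown in capitals. The stretch runs from coding position 278 to 477 in Fcgr2b (minus strand, exons between the ends of chr1:170966603-170968081) and from 263 to 462 in Fcgr3 (minus strand, exons between the ends of chr1:171054096-171057792).
Fcgr2b: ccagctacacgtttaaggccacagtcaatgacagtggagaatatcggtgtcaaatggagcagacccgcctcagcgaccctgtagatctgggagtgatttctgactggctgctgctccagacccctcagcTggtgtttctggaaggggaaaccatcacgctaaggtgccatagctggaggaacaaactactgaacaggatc
Fcgr3: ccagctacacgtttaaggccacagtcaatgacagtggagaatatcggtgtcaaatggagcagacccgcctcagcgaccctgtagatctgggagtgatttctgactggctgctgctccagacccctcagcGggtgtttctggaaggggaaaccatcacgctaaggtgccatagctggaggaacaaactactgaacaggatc
Of all 50-base stretches of the annotated transcripts, 6.95% in Fcgr2b and 9.58% in Fcgr3 also occurred in another gene, while none did in the other 4 Fc receptor genes. At 100 bases these shares were 4.30% and 2.54%. For Fcgr3 the other gene was Fcgr2b, with 166 shared stretches of 50 bases and 44 of 100 bases. Fcgr2b had 395 and 251 shared stretches, most of them not with Fcgr3, and the genes that held the most of them were Fcgr3, Gm38204 and Gm47409 at 50 bases and Cplx2, Gm47409 and Rab3c at 100 bases. The authors kept a single location for reads that fitted several places equally well, so reads from shared stretches may have been credited to another gene, and the counts of Fcgr2b and Fcgr3 are uncertain for that reason. The sources used here do not say whether counting took the strand into account. Of the Fcgr2b exon bases, 2.68% lie opposite the antisense gene Gm38204, which was itself too low to be tested.

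The label EKO was checked at the targeted gene. Siglece mRNA was 156 ± 6.30 CPM (counts scaled to the size of the library, mean ± SD, n = 3) in OVA-pulsed CtrV cells and 195 ± 18.0 CPM in OVA-pulsed EKO cells, and 155 ± 6.13 against 208 ± 36.6 CPM without OVA. No EKO-labelled library had less of it than the CtrV libraries, and an mRNA level does not show whether the protein was lost. According to the paper, single clones were screened for Siglec-E, and those pooled had little or no expression of it. Directions below are those of the labels. Libraries held 27116201 to 39698572 counts, so that 3 counts, the smallest level regarded as seen, stood for 0.0785 to 0.110 CPM. Replicate 1 of the EKO line stood apart from replicates 2 and 3 in both pulsings on the second principal component (18.8 and 20.5, against -18.3 to -1.15). Dendritic cell markers (Itgax, Zbtb46, Flt3, Cd74, H2-Aa, H2-Ab1) were all tested and summed to 22885 to 25131 CPM in CtrV and 23148 to 25527 CPM in EKO libraries, most of it from Cd74. With OVA 3 of these 6 were higher in EKO cells, Flt3 (log2 fold change 1.74), H2-Ab1 (0.52) and H2-Aa (0.49), and Itgax was lower (-0.27). Flt3 was scarce and its spread wide, at 1.36 ± 0.317 CPM in CtrV and 4.67 ± 2.56 CPM in EKO cells with OVA. Without OVA its log2 fold change was 0.92 (SE 0.43), which did not pass the test used below. Of 7 macrophage markers 5 were higher in OVA-pulsed EKO cells, where 25.1% of all genes tested were higher and 21.9% lower, and their sum was 1385 to 1571 CPM in CtrV and 1995 to 2217 CPM in EKO libraries; their part in the differences of the Fc receptor genes was not tested. Markers of B cells summed to at most 1.07 CPM, and those of mast cells and neutrophils to at most 0.0367 and 0.0302 CPM, with 3 of the 4 markers of each at 0 in every group. T and NK cell markers summed to at most 0.513 CPM.

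The OVA-pulsed EKO and CtrV cells were compared first. Fcer1g, Fcgr4, Fcgr1 and Fcgr2b were higher in EKO cells, by 3.28-, 5.06-, 2.19- and 1.38-fold, while Fcgr3 and Fcgrt did not pass the test. Over all genes tested, 47% passed the same threshold, 25.1% higher and 21.9% lower in EKO cells, and 27% had every EKO library above every CtrV library, so 4 of 6 genes passing is a count to be read against that breadth. Adjusted p-values for single genes come from the quasi-likelihood test of edgeR and were corrected by the Benjamini-Hochberg method over all genes tested, and a gene was called when its adjusted p was under 0.05. In these bulk cultures, more cells that make a transcript and more transcript per cell cannot be told apart.

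**Figure D1:**
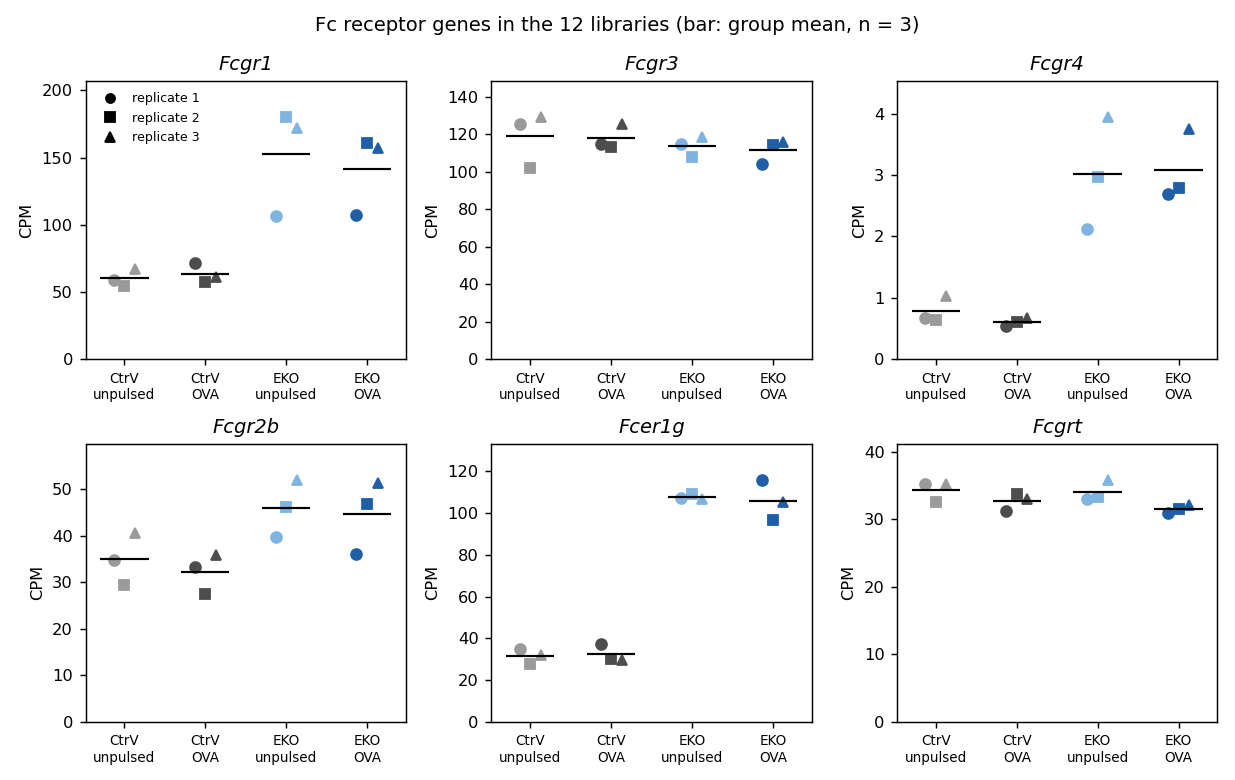
CPM of the 6 Fc receptor genes (y axes, each from 0) in the 12 libraries, by group on the x axes, with the replicate number as the symbol and the group mean as a bar. Fcer1g, Fcgr1 and Fcgr4 lie higher in all 6 EKO libraries than in all 6 CtrV libraries, replicate 1 of the EKO line is the lowest EKO library for Fcgr1, Fcgr4 and Fcgr2b in both pulsings, and Fcgr3 and Fcgrt lie at similar levels in the 4 groups.

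Fcer1g, the shared gamma chain, had 37.4, 30.2 and 29.6 CPM in the OVA-pulsed CtrV libraries (replicates 1, 2 and 3, the order used throughout) and 116, 96.8 and 105 CPM in the OVA-pulsed EKO libraries. Without OVA it had 34.7, 27.7 and 32.1 CPM in CtrV cells and 107, 109 and 107 CPM in EKO cells. The lowest EKO library was thus far above the highest CtrV library. The log2 fold change was 1.71 (SE 0.07, adjusted p = 5.8e-08) with OVA and 1.78 (SE 0.08, adjusted p = 5.3e-08) without. Unlike Fcgr1, Fcer1g did not set replicate 1 of the EKO line apart.

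Fcgr1 encodes the high-affinity IgG receptor, which binds single IgG molecules. Its levels were 71.4, 57.6 and 61.1 CPM in the OVA-pulsed CtrV libraries and 107, 161 and 157 CPM in the OVA-pulsed EKO libraries. In unpulsed cells they were 59.0, 54.1 and 67.1 CPM in CtrV and 106, 180 and 172 CPM in EKO libraries. The groups did not overlap, although replicate 1 of the EKO line lay well below the other two in both pulsings. The log2 fold change was 1.13 (SE 0.18, adjusted p = 0.00049) with OVA and 1.32 (SE 0.18, adjusted p = 0.00018) without, and it was 1.37 and 1.59 when replicate 1 of the EKO line was left out.

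Fcgr4, a receptor of intermediate affinity that prefers IgG2a and IgG2b, was the rarest of the 6 genes. It had 20 counts in each of the 3 OVA-pulsed CtrV libraries (0.540, 0.604 and 0.663 CPM) and 103, 87 and 122 counts in the OVA-pulsed EKO libraries (2.69, 2.8 and 3.75 CPM). Without OVA the CtrV libraries held 19, 18 and 30 counts and the EKO libraries 58, 90 and 129 counts. All of these lie above the level of 3 counts, and the groups were separate. The log2 fold change was 2.34 with OVA (SE 0.16, adjusted p = 1.0e-06) and 1.94 without (SE 0.16, adjusted p = 4.7e-06). Counting error alone gives standard errors of 0.20 for both values, so the fitted errors are too small for this gene. Fcgr4 thus had the largest fold difference of the 6 genes at the lowest level.

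Fcgr3, the low-affinity activating receptor, had 115, 113 and 126 CPM in OVA-pulsed CtrV and 104, 114 and 116 CPM in OVA-pulsed EKO libraries. In unpulsed cells it had 126, 102 and 129 CPM in CtrV and 115, 108 and 119 CPM in EKO libraries. The ranges overlapped in both pulsings. The log2 fold change was -0.08 (SE 0.07, adjusted p = 0.38) with OVA and -0.06 (SE 0.07, adjusted p = 0.51) without.

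Fcgr2b, the inhibitory receptor, had 33.2, 27.4 and 35.8 CPM in OVA-pulsed CtrV and 36.0, 46.9 and 51.2 CPM in OVA-pulsed EKO libraries. The groups were separate, but by less than 1 CPM between the highest CtrV and the lowest EKO library, which was replicate 1. In unpulsed cells the CtrV libraries had 34.9, 29.3 and 40.6 CPM and the EKO libraries 39.7, 46.3 and 52.0 CPM, and these ranges overlapped. The log2 fold change was 0.47 (SE 0.11, adjusted p = 0.0056) with OVA and 0.40 (SE 0.11, adjusted p = 0.014) without. In unpulsed cells the call was lost without the replicate number as a covariate (adjusted p = 0.067), without CtrV replicate 2 (0.29, adjusted p = 0.082) and without EKO replicate 2 (0.33, adjusted p = 0.068), whereas without replicate 1 of the EKO line the value was 0.52 (adjusted p = 0.00064).

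Fcgrt, the neonatal receptor, had 31.3, 33.8 and 32.9 CPM in OVA-pulsed CtrV and 30.9, 31.6 and 32.1 CPM in OVA-pulsed EKO libraries, and 35.3, 32.6 and 35.3 CPM against 33.0, 33.3 and 35.8 CPM without OVA. The ranges overlapped, with log2 fold changes of -0.05 (SE 0.05, adjusted p = 0.45) with OVA and -0.01 (SE 0.05, adjusted p = 0.84) without. Its partner B2m, which also serves MHC class I, was higher in EKO cells, at 682 ± 157 CPM in CtrV and 1061 ± 57.0 CPM in EKO cells with OVA (log2 fold change 0.63, SE 0.16, adjusted p = 0.0089) and at 697 ± 107 and 1043 ± 164 CPM without (0.58, adjusted p = 0.014).

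**Figure D2:**
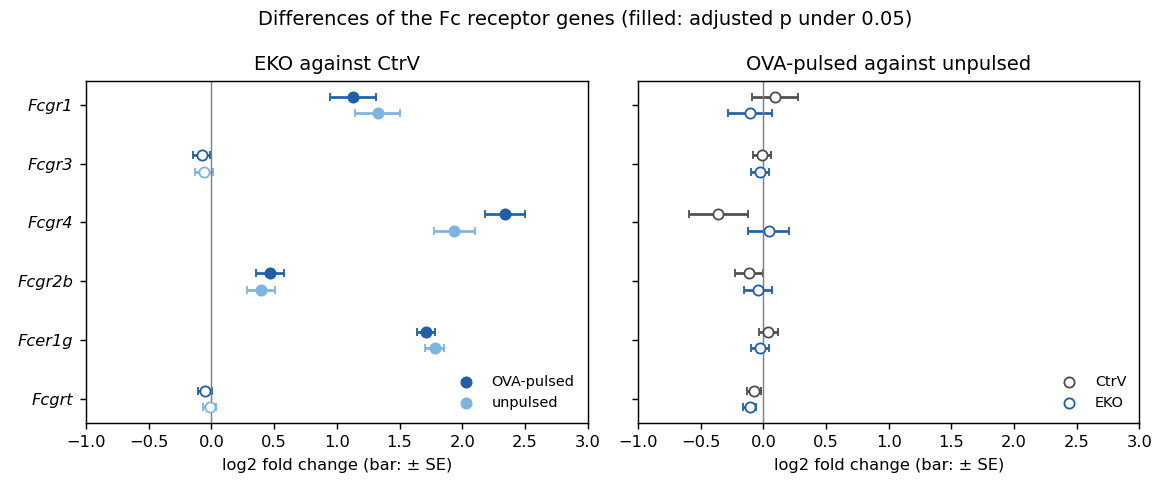
Log2 fold changes (x axes) of the 6 Fc receptor genes between EKO and CtrV cells (left) and between OVA-pulsed and unpulsed cells (right), with bars of ± 1 SE and filled points for an adjusted p under 0.05. On the left 4 genes pass in both pulsings, from 0.40 for Fcgr2b to 2.34 for Fcgr4, and on the right none passes.

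In unpulsed cells, where the same comparison was made without antigen, 4 of the 6 genes were again higher in EKO cells. Of all genes tested, 46.4% passed, 24.5% higher and 21.9% lower, and 24.1% had every EKO library above every CtrV library. Fcgr1, Fcgr4 and Fcer1g had separate groups, and Fcgr2b did not. The test of whether the difference between the lines depended on pulsing called none of the 6 genes. Its largest estimate was 0.40 (SE 0.27) for Fcgr4, followed by -0.20 (SE 0.25) for Fcgr1. It called 0 of 14079 genes (0%) with edgeR, and 0 with DESeq2 and limma voom. At an unadjusted edgeR p under 0.05 there were 269 genes (1.91%).

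OVA pulsing itself was compared within each line. No Fc receptor gene passed the test in CtrV or in EKO cells, and neither did any other gene (0% in each line with edgeR, and 0 genes with DESeq2 and limma voom). At an unadjusted edgeR p under 0.05 there were 231 genes (1.64% of those tested) in CtrV and 394 (2.80%) in EKO cells, and none of the 6 was among them. The log2 fold changes were small, between -0.36 (Fcgr4, SE 0.23) and 0.09 (Fcgr1, SE 0.18) in CtrV and between -0.11 (Fcgrt, SE 0.05) and 0.04 (Fcgr4, SE 0.16) in EKO cells. For Fcgrt the 3 OVA-pulsed EKO libraries all lay below the 3 unpulsed ones, between 30.9 and 32.1 against 33.0 to 35.8 CPM, but its adjusted p was 1. A p that misses the threshold does not show that pulsing left these genes alone.

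Levels were compared between the genes after division by the length of each gene's merged exons (CPM per kb). In OVA-pulsed CtrV cells the order was Fcgr3 (67.9 ± 3.86 CPM per kb, SD, n = 3), Fcer1g (37.1 ± 4.94), Fcgr1 (24.5 ± 2.77), Fcgrt (15.5 ± 0.602), Fcgr2b (5.55 ± 0.739) and Fcgr4 (0.480 ± 0.0489), and the ranges of neighbours did not overlap. In OVA-pulsed EKO cells Fcer1g came first with 121 ± 11.0 CPM per kb, followed by Fcgr3 (64.2 ± 3.62) and Fcgr1 (54.7 ± 11.7), whose ranges overlapped, and then by Fcgrt (15.0 ± 0.290), Fcgr2b (7.72 ± 1.35) and Fcgr4 (2.45 ± 0.464). The unpulsed cells had the same order in each line, and in unpulsed EKO cells Fcgr3 and Fcgr1 overlapped as well. The merged exons of Fcgr2b are 5790 bases long, against 1256 to 2589 for the other IgG receptors, because they take in long transcript variants, and this scaling may set its level too low.

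The make-up of the mRNA of the 4 IgG receptor genes differed between the lines, with less of it from Fcgr3 and more from Fcgr1 in EKO cells. In OVA-pulsed CtrV cells Fcgr3 held 69.0 ± 2.4% of their summed CPM per kb, Fcgr1 24.9 ± 2.41%, Fcgr2b 5.63 ± 0.464% and Fcgr4 0.488 ± 0.0501%. In OVA-pulsed EKO cells these shares were 50.1 ± 4.03%, 42.1 ± 3.88%, 5.96 ± 0.350% and 1.9 ± 0.269%. Without OVA Fcgr3 held 69.6 ± 1.30% in CtrV and 49.2 ± 7.05% in EKO cells, and Fcgr1 23.6 ± 1.07% and 43.2 ± 6.95%. The share of the inhibitory receptor was 6.11 ± 0.326% and 5.89 ± 0.246% in those cells. These shares were not tested on their own, and the ratios that follow were.

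The balance of activating over inhibitory mRNA was taken as the summed level of Fcgr1, Fcgr3 and Fcgr4 over that of Fcgr2b, per length and in each library. On the log2 scale it was 4.07 ± 0.13 in CtrV and 3.98 ± 0.09 in EKO cells with OVA, a difference of -0.09. Without OVA it was 3.94 ± 0.08 and 4.00 ± 0.06, a difference of 0.06. Between single libraries the differences ran from -0.33 to 0.09 with OVA and from -0.05 to 0.22 without, and the two-sided exact permutation p was 0.5 and 0.6. With 3 libraries against 3 the smallest p this test can give is 0.1. No difference of the summed ratio was detectable with these libraries. In plain CPM, without length, the unpulsed difference was 0.18 with all 3 EKO libraries higher, and the OVA-pulsed difference was 0.02.

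The parts of the summed ratio differed in opposite directions. Fcgr1 over Fcgr2b was higher in EKO cells by 0.67 on the log2 scale with OVA and by 0.91 without, and Fcgr4 over Fcgr2b was higher by 1.87 and 1.53. Fcgr3 over Fcgr2b was 3.62 ± 0.14 in CtrV and 3.07 ± 0.18 in EKO cells with OVA, and 3.51 ± 0.09 and 3.05 ± 0.19 without. With Fcgr3 left out, the log2 ratio of Fcgr1 and Fcgr4 over Fcgr2b was 2.17 ± 0.18 against 2.88 ± 0.10 with OVA and 1.99 ± 0.08 against 2.92 ± 0.27 without. For each of these 4 ratios the 3 EKO libraries lay on one side of the 3 CtrV libraries in both pulsings, with an exact permutation p of 0.1, the smallest possible, and 0.127 after adjustment over the 14 ratio tests made. Fcgr3 was the most abundant part of the activating sum in CtrV cells.

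The gamma chain was also set against the receptors that depend on it. The log2 ratio of Fcer1g to the summed level of Fcgr1, Fcgr3 and Fcgr4 was -1.33 ± 0.18 in CtrV and 0.00 ± 0.31 in EKO cells with OVA, and -1.36 ± 0.10 and -0.04 ± 0.18 without. In linear terms there were 0.397 and 1.00 gamma chain units for each unit of receptor mRNA with OVA, and 0.390 and 0.976 without. The difference was 1.33 with OVA and 1.32 without, and all 3 EKO libraries were above all 3 CtrV libraries in each pulsing (exact permutation p = 0.1, adjusted p = 0.127).

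**Figure D3:**
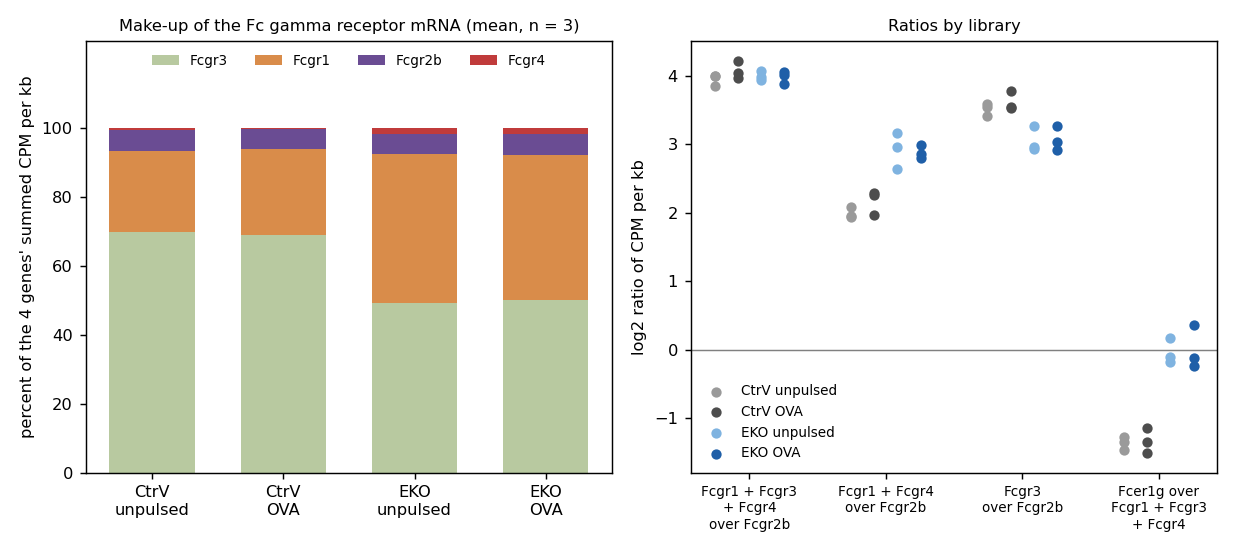
Left, mean share (percent, n = 3) of Fcgr3, Fcgr1, Fcgr2b and Fcgr4 in their summed CPM per kb by group. Right, log2 ratios of CPM per kb in each library by group, in which the full activating to inhibitory ratio lies near 4 in all groups, the ratio without Fcgr3 and the gamma chain ratio are higher in EKO libraries, and Fcgr3 over Fcgr2b is lower.

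The neighbourhood on chromosome 1 was read to see whether the Fc receptor genes moved with the genes beside them. Within 250 kb of the stretch from Fcgr2b to Fcgr3, which also takes in Fcer1g, there were 35 annotated genes, of which 16 were tested, and 12 of these were not Fc receptor genes of the set. In OVA-pulsed cells 2 of the 12 were higher in EKO cells, Atf6 (log2 fold change 0.35) and B4galt3 (0.48), and 1 was lower, Sdhc (-0.19), where 47% of all genes tested were called. In unpulsed cells, where 46.4% were called, these 3 passed in the same directions, and Dusp12 (0.28, adjusted p = 0.025) and Usp21 (-0.21, adjusted p = 0.035) passed as well. The largest of these values was well below the 1.71 of Fcer1g. Annotated genes too low to be tested are not covered by these values, and some differed in CPM in either direction. With OVA, Adamts4 was at 0.0201 CPM in CtrV and 0.503 CPM in EKO cells, and Fcrla at 0.364 and 0.0819 CPM. Fcgr3 starts 46.0 kb from Fcgr4 and Fcgr2b at -42.4 kb, on the other side, and the 3 genes, in the order Fcgr3, Fcgr4 and Fcgr2b, had log2 fold changes of -0.08, 2.34 and 0.47.

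**Figure D4:**
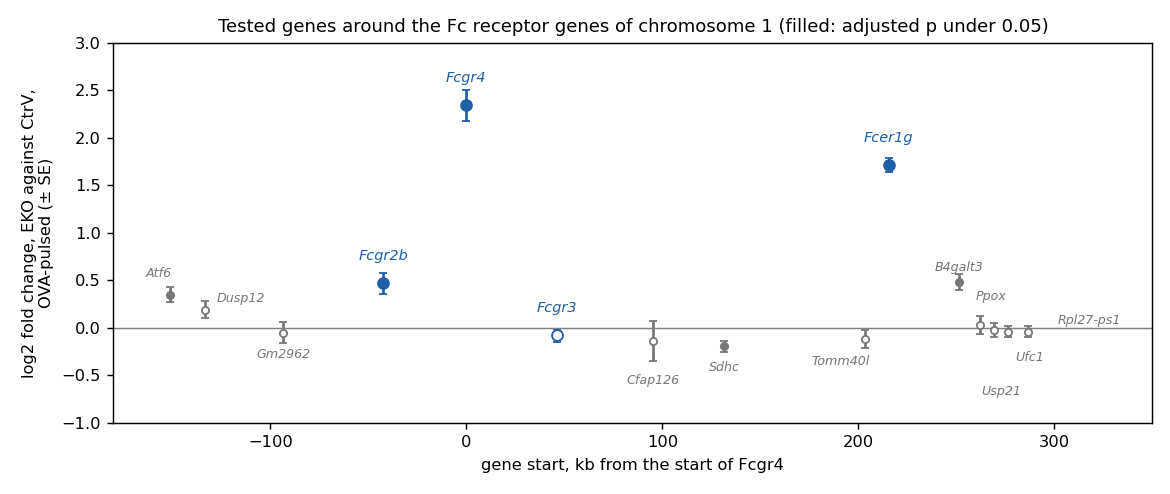
Log2 fold change between OVA-pulsed EKO and CtrV cells (y axis, ± 1 SE) of 15 of the 16 tested genes by the distance of their start from that of Fcgr4 in kb (x axis), with Fc receptor genes in blue and filled points for an adjusted p under 0.05. Fcgr4 and Fcer1g stand above 1.5 and the genes outside the set lie between -0.19 and 0.48.

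Promoter sequences are shown for Fcgr1, Fcgr4 and Fcer1g, whose mRNA differed most between the lines (250 bases before the RefSeq start, GRCm38.p6, 5′ to 3′ on the strand of the gene), where a window was found for all 6 genes. Searched on both strands were the gamma-activated site (TTCNNNGAA, bound by STAT dimers), the interferon-stimulated response element (bound by IRF and STAT complexes), the ETS core bound by PU.1 (GGAAGT, which reads ACTTCC on the other strand), a kappa B site and CCAAT. Matches are in capitals. The windows lie at chr3:96293970-96294219 (minus strand), chr1:171018676-171018925 (plus strand) and chr1:171234350-171234599 (minus strand).
Fcgr1: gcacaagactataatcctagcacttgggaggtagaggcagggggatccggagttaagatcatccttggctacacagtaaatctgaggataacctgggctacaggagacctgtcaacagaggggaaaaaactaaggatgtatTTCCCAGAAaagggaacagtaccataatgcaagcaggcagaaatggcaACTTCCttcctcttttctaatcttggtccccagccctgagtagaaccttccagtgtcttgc
Fcgr4: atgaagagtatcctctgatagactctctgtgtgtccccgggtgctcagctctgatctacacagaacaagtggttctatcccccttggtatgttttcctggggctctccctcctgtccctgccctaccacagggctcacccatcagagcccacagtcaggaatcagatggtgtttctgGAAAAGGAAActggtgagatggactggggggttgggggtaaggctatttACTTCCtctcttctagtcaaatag
Fcer1g: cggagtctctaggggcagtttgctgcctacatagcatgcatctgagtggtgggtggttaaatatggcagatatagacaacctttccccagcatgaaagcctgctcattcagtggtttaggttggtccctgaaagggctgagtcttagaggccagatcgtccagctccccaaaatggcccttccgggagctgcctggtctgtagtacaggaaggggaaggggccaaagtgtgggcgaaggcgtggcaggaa
Fcgr1 held a gamma-activated site 109 bases before its start and an ETS core at 61 bases. Fcgr4 held an interferon-stimulated response element at 73 bases and an ETS core at 24 bases, and Fcgr2b an ETS core at 31 bases. Of the 250 bases of the Fcgr2b window, 187 lie in its GENCODE exons. The Fcgr2b and Fcgr3 windows lie inside the GENCODE span of their genes and so not before the start annotated there. The Fcer1g window held none of the 5 motifs, and neither did those of Fcgr3 and Fcgrt. Over the 32851 promoter windows of the RefSeq table these motifs occurred in 7.02%, 2.98% and 19.7%, and the kappa B and CCAAT motifs in 0.356% and 33.8%. A match describes these letters only and shows no binding.

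A list of 12 transcription factors of myeloid and interferon-responsive genes, not chosen by the motifs above, was read next, and 10 of them were tested. In OVA-pulsed cells 5 were higher and 1 was lower in EKO cells, against 25.1% and 21.9% of all genes tested, with a median log2 fold change of 0.39 against 0.00 over all genes tested. Irf8 (1.35, SE 0.15), Stat2 (0.93, SE 0.17) and Irf9 (0.77, SE 0.12), which carry interferon signals to promoters, were higher. Cebpb was higher as well (0.58, SE 0.19), at a low level of 1.03 against 1.57 CPM. In unpulsed cells Cebpb was not called (0.36, adjusted p = 0.17). Cebpa, a factor of early myeloid cells, was lower (-1.13, SE 0.10). The PU.1 gene Spi1 was at 412 CPM in CtrV and 432 CPM in EKO cells and was not called (adjusted p = 0.43).

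Other receptors that signal through the gamma chain were examined next. Of 14 genes listed, 8 were matched in the table and 5 were abundant enough to be tested, and all 5 were higher in OVA-pulsed EKO cells, as were 25.1% of all genes tested (median log2 fold change of the 5, 0.83). They were the C-type lectin receptors Clec4n (Dectin-2, 1231 against 2191 CPM, 0.83, SE 0.07), Clec4b1 (2.96 against 8.72 CPM, 1.56, SE 0.13), Clec4e (Mincle, 1.47 against 3.07 CPM, 1.06, SE 0.15) and Clec4d (9.66 against 14.1 CPM, 0.54, SE 0.10), and the paired immunoglobulin-like receptor Pira2 (18.6 against 31.3 CPM, 0.73, SE 0.20). Pira2 belongs to a family of near-identical copies, so its counts are uncertain, and in unpulsed cells it was not called (0.51, adjusted p = 0.056). The 3 others, Oscar, Gp6 and Ncr1, had at most 5 counts in any library.

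The signalling genes downstream of the gamma chain moved in both directions. Of 31 tested, 17 were higher, 5 were lower and 9 were not called, in OVA-pulsed and in unpulsed cells alike, with a median log2 fold change of 0.18 with OVA. Of all genes tested 47% were called with OVA and 46.4% without. Syk, the kinase that binds the phosphorylated gamma chain, rose from 214 to 471 CPM (1.14, SE 0.06, adjusted p = 1.2e-07). Fgr, a Src family kinase that acts before Syk, fell from 244 to 88.6 CPM (-1.46, SE 0.06). The adaptors Lcp2 (SLP-76, 0.79, SE 0.06) and Gab2 (0.72, SE 0.06) were higher. With OVA a change of at least 1 on the log2 scale, up or down, was reached by 4 of the 22. Over all genes tested it was reached by 1268 of the 6619 called.

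The genes on the inhibitory side likewise held members higher and lower in EKO cells. Of 14 tested, 6 were higher, 2 were lower and 6 were not called with OVA (median 0.15), where 47% of all genes tested were called. The inhibitory receptors Clec4a2 (DCIR, 10.4 against 51.6 CPM, 2.32, SE 0.09), Lilrb4a (122 against 285 CPM, 1.23, SE 0.07) and Pirb (60.1 against 87.9 CPM, 0.54, SE 0.06) were higher, and so was Inppl1, which encodes the phosphatase SHIP-2 (0.72, SE 0.11). The adaptor Dok2 fell from 7.80 to 2.7 CPM (-1.56, SE 0.22). Inpp5d, which encodes SHIP-1, the partner of Fcgr2b, was at 276 CPM in CtrV and 250 CPM in EKO cells and was not called (-0.15, SE 0.06, adjusted p = 0.081).

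A list of 15 further genes held members of the wider Fc receptor family and B2m, which is a partner of the neonatal receptor and not itself an Fc receptor. Of the 15, 4 were abundant enough to be tested, B2m among them. All 4 were called in both pulsings, against 47% of all genes tested with OVA and 46.4% without. Fcrl1 (3.24 against 19.8 CPM with OVA, 2.62, SE 0.11), Trim21, a receptor for antibody in the cytosol (29.3 against 53.8 CPM, 0.86, SE 0.17), and B2m were higher in EKO cells, and Fcrls, an Fc receptor-like gene, was lower (128 against 44.3 CPM, -1.53, SE 0.07). The IgE receptor chains Fcer1a and Ms4a2 had no count in any library, which allows at most 3 counts in each. Fcmr, the IgM receptor gene, had 0 counts in the 3 OVA-pulsed CtrV libraries and 9 to 28 in the OVA-pulsed EKO libraries, and Fcrla had 10 to 14 against 1 to 4 counts, levels too low to be tested. B cell markers, which some of these genes accompany in spleen, summed to 0.0358 to 0.212 CPM in CtrV and 0.450 to 1.07 CPM in EKO libraries, and their part was not tested.

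**Figure D5:**
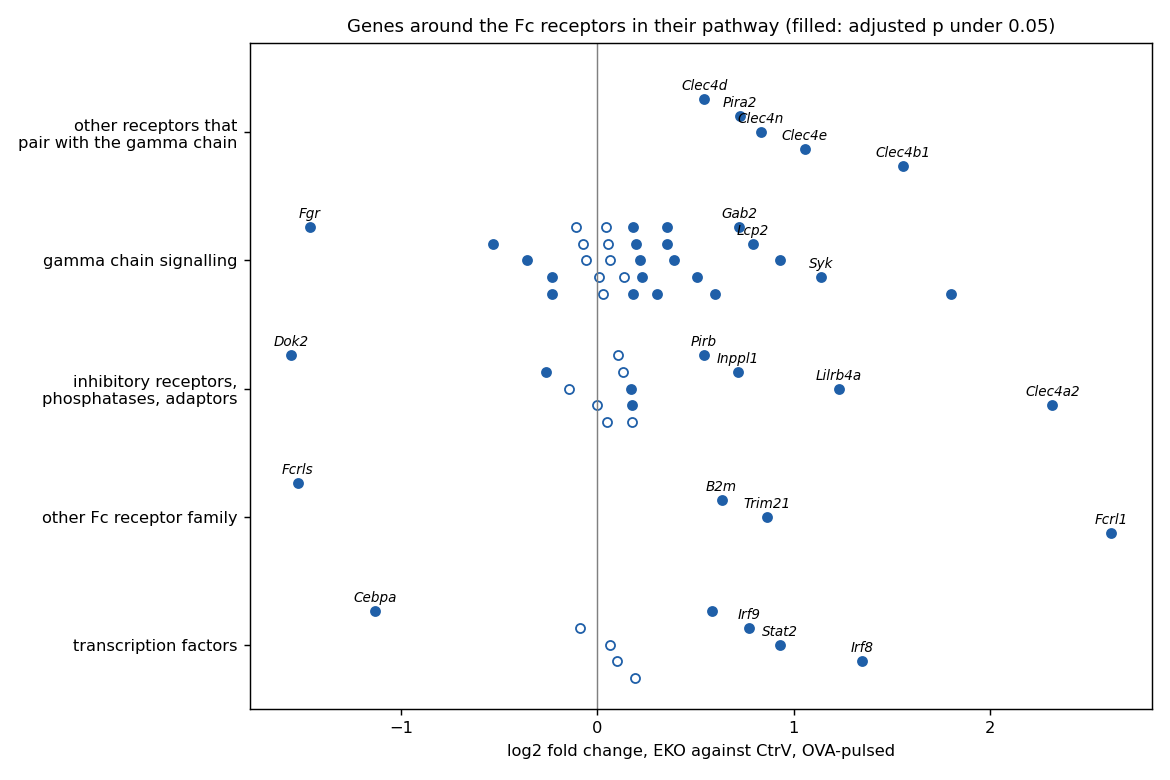
Log2 fold changes between OVA-pulsed EKO and CtrV cells (x axis) of tested genes in 5 lists (rows), 1 point for a gene drawn, filled for an adjusted p under 0.05, with the points of a row spread vertically for legibility only. The gamma chain partners all lie above 0, while the signalling and inhibitory lists hold genes on both sides, with Fgr at -1.46 and Syk at 1.14 in the first and Dok2 at -1.56 and Clec4a2 at 2.32 in the second.

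The Fc receptor genes were last compared with each other and with all tested genes over the 12 libraries, as a description in which the 4 groups set much of the likeness. On log2 CPM, Fcgr4 had a Pearson r of 0.95 with both Fcer1g and Fcgr1. Fcgr1 had 0.93 with Fcer1g over all libraries. Within the groups, after the group means were taken out, the r of Fcgr1 was 0.79 with Fcgr2b and 0.04 with Fcer1g. In each group the library lowest in Fcgr1 was also the lowest in Fcgr2b. For Fcer1g the groups differed. In unpulsed CtrV cells the library lowest in Fcgr1 (54.1 CPM) was also the lowest in Fcer1g (27.7 CPM). In OVA-pulsed EKO cells the library lowest in Fcgr1 (107 CPM) was the highest in Fcer1g (116 CPM). In the other groups it lay in between. Fcgr2b and Fcgr3, which share sequence, had 0.77 within the groups and 0.21 over all libraries. The value within the groups was not particular to this pair. Fcgr2b had 0.79 with Fcgr1 and 0.76 with Fcgr4, in which no shared stretches were found. It had lower values with Fcgrt (0.51) and Fcer1g (0.06). The part of shared sequence in these values was not tested. The genes most like Fcer1g were Itgal (0.998), Arhgap10 (0.997) and Clic4 (0.996), and those most like Fcgr1 were Gtpbp2 (0.994), Tanc2 (0.994) and Cd37 (0.992). Fcgr4 was closest to Nt5dc1, Fam45a and Ddx24 (0.988 to 0.991) and Fcgr2b to Gm9892, Gm43351 and Hspa9 (0.953 to 0.962). Fcgr3 and Fcgrt, which hardly differed between groups, had weaker matches, the highest being Gm45700 for Fcgr3 (0.912) and Gm3800 for Fcgrt (0.849).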

How the data were processed

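RNA of 12 Sp37A3 cultures was sequenced after preparation with a stranded mRNA kit, 3 in each of 4 groups taken from the sample labels. Raw read counts for each gene were deposited by the authors. According to the study's methods, reads were aligned to mm10 with STAR, equally good hits were reported at a single location, and featureCounts assigned the 5' end of a read to merged exons of an Ensembl gene model. All 12 columns were used. Here the 55401 genes were filtered to the 14079 whose log2 CPM exceeded 0 in 2 or more libraries and were fitted with edgeR 4.0.16 (R 4.3.3, TMM factors, quasi-likelihood test) over all 12 libraries, with group and replicate number as covariates as in the study and Benjamini-Hochberg adjustment. Symbols, exon lengths and coding sequences come from GENCODE annotation of GRCm38, another release than the authors used, and promoters from RefSeq. Ratios were tested by exact permutation (scipy). The tests were checked on simulated counts with the same spread for every gene and no replicate effect, a simpler setting than these data.

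The Fc receptor genes and the gene lists were chosen with earlier results of these data known. Named were the 6 genes, up to 5 tested genes of each list with the smallest p in OVA-pulsed cells and a mean log2 CPM of at least 1, the 3 genes most correlated with each Fc receptor gene, and tested neighbours within 250 kb. Some genes that this rule names are not reported here, though they are part of the counts. Cebpb, Spi1, Inpp5d, Oscar, Gp6, Ncr1, Fcmr, Fcrla, Fcer1a and Ms4a2 were named after their values were seen. Same-numbered libraries of the 2 lines deviated together with OVA (correlations of 0.450, 0.295 and 0.298). Without OVA not every pair did (0.0664, -0.00915 and 0.271). No correlation was calculated between differently numbered libraries, so these values cannot decide whether the numbers pair libraries. The sources are silent on any shared handling of cultures with equal numbers. The main fit used the replicate number in both pulsings, and the ratio tests did not use it. The labels do not say how the cultures were kept separate, so p-values measure the spread between these cultures. Alternatives were DESeq2 1.42.0, limma voom (3.58.1), other normalizations, filters and thresholds, a fit without the replicate block and leaving out libraries.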

Additional observations from a re-analysis of the deposited data

How the results depend on the processing

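The count of Fc receptor genes differing between OVA-pulsed EKO and CtrV cells was 4 in every alternative run except when a log2 fold change of at least 1 in either direction was required, which left 3, and the unpulsed count was 3 or 4. Without the replicate block the OVA-pulsed count was 4 and the unpulsed count 3, because Fcgr2b was lost, and no other call of the 6 genes changed under this pairing setting. Fcer1g, Fcgr1, Fcgr4 and Fcgr2b kept their direction between the lines in all 24 alternatives. Requiring a log2 fold change of at least 1 in either direction left 1268 of all 14079 genes tested with OVA. It left 4 of the signalling genes, 3 of the inhibitory list and 2 of the gamma chain partners. Of the wider family it left 2, and of the transcription factors 3. Without the expression filter 7 of the wider family differed, with 11 tested, against 6709 of all 28881 genes then tested.

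The activating to inhibitory difference depended on what was summed. With OVA it was 0.67 for Fcgr1, -0.55 for Fcgr3 and 1.87 for Fcgr4 alone and 0.71 without Fcgr3. Without OVA these values were 0.91, -0.46, 1.53 and 0.93, and it was 0.18 in plain CPM.

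Some of the values that were not called changed sign when single libraries were left out, as follows. Between the unpulsed lines Fcgr3 ranged from -0.15 to 0.0029 and Fcgrt from -0.063 to 0.026. The dependence on pulsing ranged from -0.37 to 0.075 for Fcgr1, from -0.052 to 0.19 for Fcgr2b, from -0.10 to 0.062 for Fcgr3, from -0.15 to 0.0060 for Fcer1g and from -0.077 to 0.0015 for Fcgrt. The effect of pulsing in CtrV cells ranged from -0.17 to 0.21 for Fcgr1, from -0.096 to 0.053 for Fcgr3 and from -0.026 to 0.10 for Fcer1g. In EKO cells it ranged from -0.29 to 0.053 for Fcgr1, from -0.17 to 0.074 for Fcgr2b, from -0.11 to 0.030 for Fcgr3, from -0.079 to 0.11 for Fcgr4 and from -0.11 to 0.048 for Fcer1g. Without replicate 1 of the EKO line in both pulsings, Fcgrt was 0.0014 between the unpulsed lines, the dependence of Fcgr3 was 0.0339, and pulsing in EKO cells gave 0.00077 for Fcgr2b, 0.025 for Fcgr3 and -0.078 for Fcgr4. The cause of these changes was not tested. For Fcgr4 the low counts limit precision.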
